A study of Mus musculus with 9 samples.

Results

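The myeloid integrins described here were 10 genes chosen by name from the 54532 listed in a bulk RNA-seq table of sorted mouse spleen dendritic cells (DCs). They were the alpha chain genes Itgal, Itgam, Itgax, Itgad, Itga4 and Itgae and the beta chain genes Itgb2, Itgb1, Itgb7 and Itgb3. All 10 passed the filter on low values (3 or more samples with FPKM, fragments per kilobase of gene length scaled to library size, at or over 1), as did 12746 genes in all. The study asked how DCs of the spleen differ in T-cell acute lymphoblastic leukemia (T-ALL), which was set up in unirradiated C57BL/6-background mice by transplanting GFP-marked leukemia cells driven by the intracellular domain of Notch1. T-DCs were the immature DCs of leukemic spleen, sorted as CD11c+MHCIIlo cells that lacked GFP and lineage markers such as CD3 and NK1.1. T-mDCs were mature conventional DCs (cDCs) of leukemic spleen, and N-mDCs were mature cDCs of healthy spleen. Each group had 3 samples, 9 in all, numbered 1 to 3, and no label says whether the samples of a group came from separate mice or from pools, so p-values measure only the spread between these samples.

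Integrins are heterodimers of 1 alpha and 1 beta chain that hold leukocytes to other cells and to matrix, and neither chain reaches the cell surface well without a partner. Itgb2 (CD18) pairs with Itgal to form LFA-1, the receptor for ICAM ligands, with Itgam (CD11b) to form the complement receptor Mac-1, with Itgax (CD11c), the usual DC marker, and with Itgad (CD11d), known from red pulp macrophages of the spleen. Itga4 pairs with Itgb1 to bind VCAM-1 and with Itgb7 to bind MAdCAM-1, while Itgae (CD103), a marker of the cDC1 subset, pairs with Itgb7 to bind E-cadherin. Itgb3 is the partner of Itgav and of the platelet chain Itga2b. CD11c protein was part of the sorting gate, so the Itgax values were read in cells selected for its product.

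The genes of the 4 Itgb2 partners lie on the plus strand of chromosome 7 in the mm10 build: Itgal at chr7:127296260-127335138, Itgam at chr7:128062640-128118491, Itgax at chr7:128129547-128150657 and Itgad at chr7:128154376-128223816. Itgam ends 11055 bases before Itgax, and Itgax ends 3718 bases before Itgad. Itgb2 lies at chr10:77530252-77565708 on the plus strand. Itgam and Itgax are neighbours, and their log2 differences between T-DCs and each mature group had opposite signs, although of these 4 differences only that of Itgam from T-mDCs passed the threshold. Their promoters are shown, from 250 bases before to 50 bases after the start of the gene (RefSeq, GRCm38.p6, plus strand, chr7:128062390-128062689 for Itgam and chr7:128129300-128129599 for Itgax). Capitals mark GAGGAA or its reverse complement TTCCTC, the purine-rich core that the myeloid factor PU.1 binds, searched on both strands.
Itgam: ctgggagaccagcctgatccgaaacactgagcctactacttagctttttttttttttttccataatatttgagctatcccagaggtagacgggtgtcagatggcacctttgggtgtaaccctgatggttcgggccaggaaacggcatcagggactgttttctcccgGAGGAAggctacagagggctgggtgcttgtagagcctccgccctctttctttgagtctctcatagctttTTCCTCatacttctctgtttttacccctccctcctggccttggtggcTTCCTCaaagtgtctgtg
Itgax: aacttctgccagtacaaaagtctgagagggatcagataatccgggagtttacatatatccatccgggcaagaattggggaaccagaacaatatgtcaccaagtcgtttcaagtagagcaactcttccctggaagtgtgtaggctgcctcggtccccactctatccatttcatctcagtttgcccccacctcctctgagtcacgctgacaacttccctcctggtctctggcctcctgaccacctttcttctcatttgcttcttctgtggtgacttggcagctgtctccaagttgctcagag
The Itgam window held the letters at 3 places, starting at -84, -15 and 33 from the gene start, and the Itgax window held none. Of the 10 genes, 5 had an entry in the promoter table: Itgb1 and Itgb7 each held 1 match and Itga4 held 0. The letters occurred in 28.3% of all 32851 promoters of this length, and a match is a description of the letters and not of binding.

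Reads on genes ranged from 15360815 to 18440913 per sample. Some samples stood apart. T-DC sample 1 had the highest FPKM of the 3 T-DC samples for all 10 integrins. The share of all tested genes for which this held was not counted. It is not particular to integrins. The summed cDC1, cDC2, red pulp macrophage and monocyte markers were highest there too, while the T-lineage, NK, erythroid and neutrophil sums were not. T-DC samples 2 and 3 had 3.82% and 3.0% of their reads on hemoglobin genes, against 0.0422% in T-DC sample 1 and 0.00111% to 0.405% in the other 6 samples. T-mDC samples 2 and 3 were closer to each other than any other pair within a group, with a chi-square of 1.85 per gene (1 is counting noise and other pairs lay between 7.77 and 35.7). They differed by more than counting noise and were kept as separate samples. The summed FPKM of 8 cDC1 markers was 80.5 to 198 in T-DCs, below the 321 to 417 of N-mDCs and the 430 to 660 of T-mDCs. Against N-mDCs, 7 of these markers had a log2 difference below 0. The other, Snx22, had a mean of 27.1 FPKM in T-DCs and 14.7 in N-mDCs. The sum of 8 cDC2 markers lay between 167 and 628 for T-DCs, 602 and 626 for N-mDCs and 309 and 387 for T-mDCs, and most of it in T-DCs came from Sirpa and Klf4. Of the 8 cDC2 markers, T-DCs had 6 lower than N-mDCs and 5 lower than T-mDCs, with none higher in either comparison (limma). Of all tested genes, 10.3% and 8.79% were lower in these comparisons. Cd209a, for example, was 4.06, 3.26 and 0.832 FPKM in T-DCs, 67.1 to 84.8 in N-mDCs and 16.4 to 20.4 in T-mDCs. From single-cell data, not used here, the paper described T-DCs as mainly cDC1, cDC2 and macrophage-like DCs. By flow cytometry it reported that most T-DCs were cDC1, unlike either mature group. The cDC1 sum here was instead lowest in T-DCs, although summed RNA and a share of cells are unlike measures. Cell identity was not tested with these bulk values.

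Itgb2, the shared beta chain, had the highest mean FPKM of the 10 genes in every group. Itgax came second in N-mDCs and T-mDCs, where its range did not touch that of the next gene. In T-DCs the second place was held by Itgal, followed by Itgb1 and then Itgax, and the ranges of these neighbours overlapped. Itgae had the lowest mean in N-mDCs and T-DCs, and Itgb3 in T-mDCs, where its range overlapped that of Itgam.

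**Figure D1:**
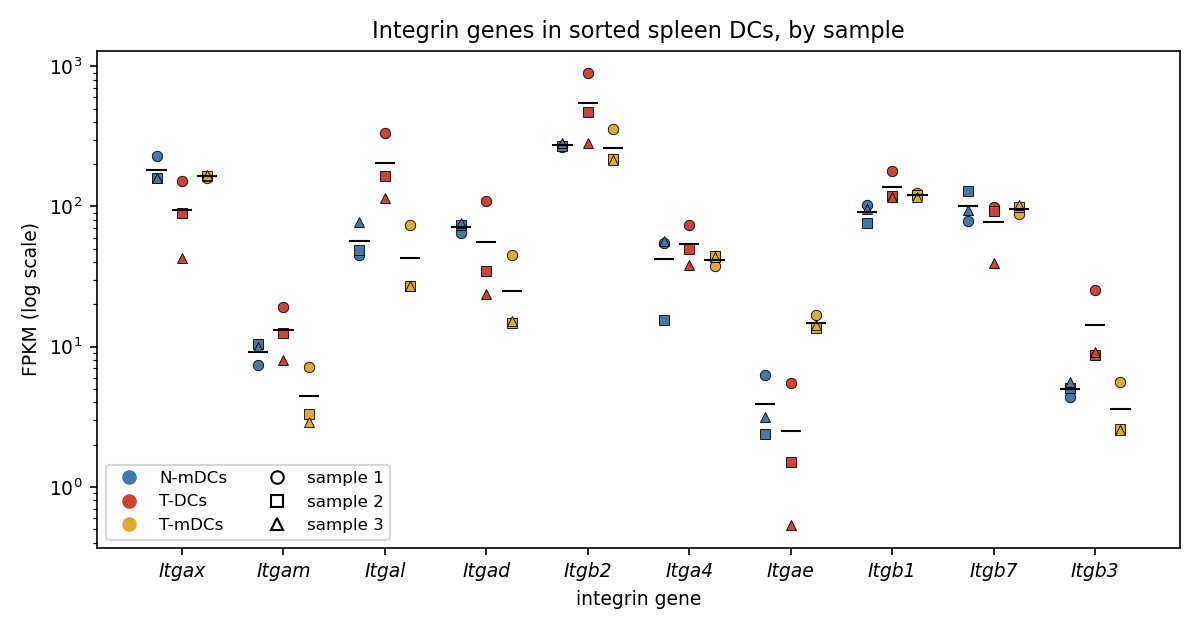
FPKM of the 10 integrin genes (log axis) in each of the 9 samples. Colour marks the group, the symbol marks the sample number and the bar is the mean of 3 samples. Itgal was 114 or more in every T-DC sample and 76.9 or less in every mature cDC sample, and Itgae was 13.7 or more in every T-mDC sample and 6.23 or less elsewhere.

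The LFA-1 alpha chain Itgal was higher in T-DCs than in both kinds of mature cDC. Its FPKM was 333, 165 and 114 in T-DC samples 1 to 3, 45.2, 49.1 and 76.9 in N-mDCs and 74.3, 27.1 and 27.2 in T-mDCs, with means of 204 ± 115, 57.1 ± 17.3 and 42.9 ± 27.2 (SD, n = 3). The lowest T-DC sample lay above the highest sample of either other group. On the log2(FPKM + 1) scale the difference was 1.72 ± 0.49 (SE) against N-mDCs, a 3.28-fold higher level with a 95% interval of 0.60 to 2.83 (limma, adjusted p = 0.0464). Against T-mDCs it was 2.25 ± 0.49, a 4.75-fold higher level with an interval of 1.13 to 3.37 (limma, adjusted p = 0.0204). Both differences share the T-DC samples and are not independent of each other. The call against N-mDCs was close to the threshold: it was lost without any 1 of N-mDC samples 1, 2 or 3, T-DC samples 1 or 2, or T-mDC samples 2 or 3, with adjusted p between 0.0546 and 0.138 and log2 differences between 1.29 and 1.95. The call against T-mDCs was lost when T-DC sample 2 was left out (adjusted p = 0.0574) or T-mDC sample 2 or 3 was (adjusted p = 0.098 and 0.0967), and kept without T-DC sample 1, where the difference was 1.82.

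T cells, NK cells, neutrophils and monocytes also carry LFA-1, so the markers of these cells stand beside Itgal. The summed FPKM of 11 T-lineage markers was 16.2 to 42.6 in T-DCs, below the 116 to 126 of N-mDCs and the 61.7 to 113 of T-mDCs. The sum of 6 NK markers lay between 3.92 and 20.5 for T-DCs, 128 and 179 for N-mDCs and 22.8 and 33.8 for T-mDCs. These sums are carried by few genes. Most of the T-lineage sum in mature cDCs came from Cd8a and Cd4, which spleen cDCs express themselves, and most of the NK sum in T-mDCs came from Klrd1. Against T-mDCs, 6 of the 8 tested T-lineage markers and 4 of the 6 NK markers had a log2 difference above 0 in T-DCs, none of them past the threshold, while Cd8a and Klrd1 were lower (-3.62 and -2.21, limma adjusted p = 0.00223 and 0.00498). Against N-mDCs, 3 T-lineage and all 6 NK markers were lower in T-DCs and none was higher (limma), where 10.3% of all tested genes were lower. The 3 were Cd8a, Cd8b1 and Cd4. Cd3e, Cd3d, Cd3g, Lck and Dntt overlapped with N-mDCs and did not pass (limma, adjusted p from 0.212 to 0.97). In T-DC sample 2 Cd3d was 5.94 and Cd3e 1.28 FPKM, against 0.705 to 4.38 and 0.392 to 1.52 in N-mDCs. The sum of 10 neutrophil markers was 42.9 in T-DC sample 1, which had the most Itgal, and 4390 and 1550 in samples 2 and 3. In N-mDCs it was 83.8 to 760 and in T-mDCs 21.4 to 22.1. Of 8 monocyte markers, 3 were higher in T-DCs than in T-mDCs, where 5.44% of all tested genes were higher (limma). They were Ace (424.5, 175 and 156.8 FPKM against 81.1, 5.06 and 4.65, limma adjusted p = 0.028), Cx3cr1 (92.2, 50.1 and 34.4 against 27.1, 4.49 and 4.19, adjusted p = 0.0326) and Treml4 (300.3, 164 and 112 against 89.3, 47.6 and 47.6, adjusted p = 0.0305). In N-mDCs Ace was 19.4 to 48.2, Cx3cr1 8.72 to 16.5 and Treml4 87.0 to 125 FPKM, and none of these differences from T-DCs passed (limma, adjusted p = 0.0871, 0.0603 and 0.166), while 1 monocyte marker, Ccr2, was lower in T-DCs (-1.56, adjusted p = 0.0353). Among T-DC samples these 3 genes had the same order as Itgal, highest in sample 1 and lowest in sample 3. That order is not particular to them. The sums of cDC1 (198, 126 and 80.5), cDC2 (628, 276 and 167) and red pulp macrophage markers (3866, 1290 and 775) had it too. Those of T-lineage, NK and neutrophil markers did not. The part of any of these cell types in the Itgal values was not tested. In bulk samples, fewer cells of a type and less RNA per cell cannot be told apart.

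Itgax, the CD11c gene, had lower values in T-DCs. Its FPKM was 152, 90.4 and 43.0 in T-DCs, 230, 158 and 160 in N-mDCs and 159, 166 and 167 in T-mDCs. Every T-DC sample lay below every mature cDC sample, and the 3 T-DC samples spread over more than the other 6. The log2 difference was -1.09 ± 0.40 (SE) against N-mDCs (95% interval -2.0 to -0.18, limma adjusted p = 0.0926) and -0.96 ± 0.40 against T-mDCs (interval -1.87 to -0.04, limma adjusted p = 0.149), neither past the threshold. Without T-DC sample 1 the differences were -1.51 and -1.38 and both passed (limma, adjusted p = 0.0067 and 0.0117). Between T-mDCs and N-mDCs the groups overlapped, with a log2 difference of -0.14 and an interval of -1.05 to 0.78 (limma, adjusted p = 0.895).

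Itgam, the CD11b gene, had higher RNA values in T-DCs than in T-mDCs. By flow cytometry the paper reported the other direction for CD11b protein, lower on T-DCs than on both mature groups. Why RNA and protein differ was not tested. FPKM values were 19.0, 12.6 and 8.04 in T-DCs, 7.35, 10.4 and 9.89 in N-mDCs and 7.201, 3.33 and 2.89 in T-mDCs. T-DCs and T-mDCs did not overlap, while T-DC sample 3 lay inside the N-mDC range. The log2 difference from T-mDCs was 1.39 ± 0.36 (SE), a 2.61-fold higher FPKM + 1 (limma, adjusted p = 0.0367). From N-mDCs it was 0.42 (interval -0.40 to 1.23, limma adjusted p = 0.438). The call against T-mDCs was lost without any 1 of the 3 N-mDC samples (adjusted p = 0.0534 to 0.0602), when T-DC sample 2 (0.103) or T-mDC sample 2 or 3 (0.15 and 0.152) was left out. Of the exonic bases of Itgam, 68.7% are shared with Gm49368, a gene on the same strand that was listed at 0.0110 to 0.160 FPKM, and how reads were divided between them is not given in the sources used here.

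Itgad, the CD11d gene, was the most spread member among T-DCs after Itgae, with FPKM of 110, 34.6 and 23.8. It was 64.7, 73.3 and 76.6 in N-mDCs and 45.0, 14.7 and 15.3 in T-mDCs. T-DC sample 1 lay above every other sample, and T-DC samples 2 and 3 below every N-mDC sample. T-mDCs lay below N-mDCs without overlap, with a log2 difference of -1.67 ± 0.58 (SE) that did not pass over all genes (limma, adjusted p = 0.193, and 0.0431 without T-DC sample 1). Neither T-DC difference passed (-0.65, adjusted p = 0.452, against N-mDCs and 1.02, adjusted p = 0.276, against T-mDCs, limma). Of the Itgad exonic bases 19.7% overlap other genes, among them Cox6a2 on the opposite strand (3.42 to 53.5 FPKM), whose reads cannot be told apart from those of Itgad where strand was not kept.

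Itgad levels followed the markers of red pulp macrophages. Pearson's r between log2(FPKM + 1) of Itgad and the log2 summed FPKM of 11 red pulp macrophage markers was 0.975 over the 9 samples, and 0.977 without T-DC sample 1, as a description of points that share libraries. N-mDCs had a sum of 2308 to 4646, T-DCs had 3866, 1290 and 775, and T-mDCs had 1816, 535 and 534. The sum of 8 monocyte markers ran in a like order (r = 0.965), from 1525 to 1979 for N-mDCs, from 814 to 2486 for T-DCs and from 361 to 809 for T-mDCs. Nr4a1 alone held 1183, 1293 and 1435 FPKM of that sum in N-mDCs. Of the 8 markers, 4 had a log2 difference above 0 in T-DCs against N-mDCs and 4 below. Mean FPKM in T-DCs and N-mDCs was 252 and 36.7 for Ace and 58.9 and 12.6 for Cx3cr1. The part of these cells in the Itgad values was not tested.

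**Figure D2:**
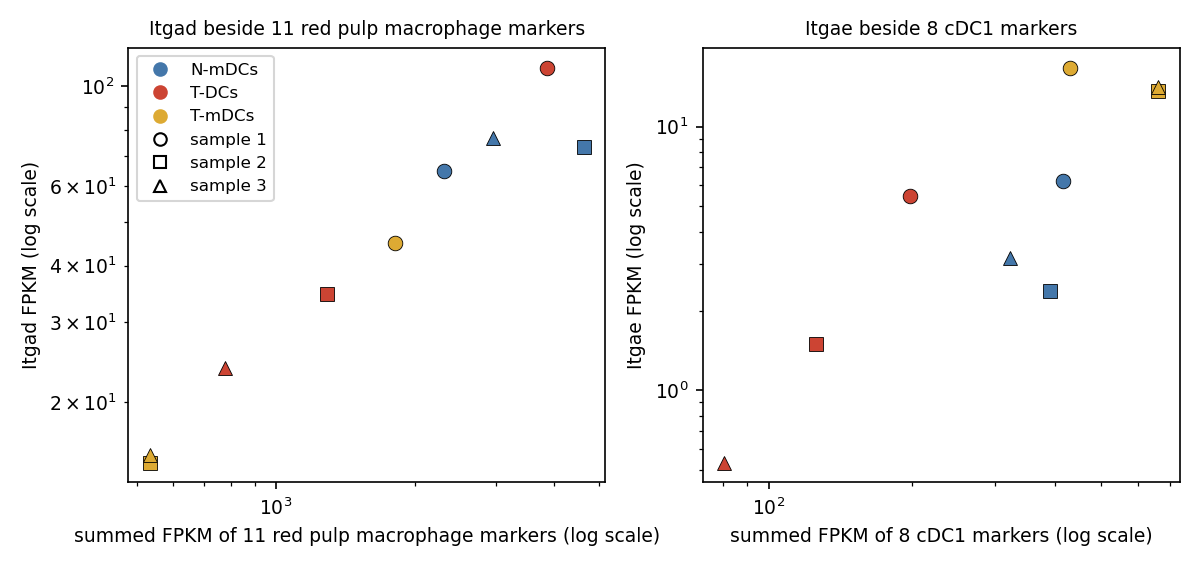
FPKM of Itgad against the summed FPKM of 11 red pulp macrophage markers (left) and FPKM of Itgae against the summed FPKM of 8 cDC1 markers (right), all axes logarithmic, 1 point per sample, colour for the group and symbol for the sample number. Itgad and its marker sum rise together over the 9 samples (r = 0.975), and Itgae has its highest values in the 3 T-mDC samples, whose cDC1 sums are 430 to 660.

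FPKM is per length, so the 4 alpha chains that pair with Itgb2 can be set against each other within a sample. Of the 50-base stretches of Itgax transcripts 8.02% also occur in Itgad. Of those of Itgad 13.5% occur in Itgax or other genes. How reads that match both were placed is not given in the sources used here. Itgal made up 54.3%, 54.5% and 60.5% of the summed FPKM of the 4 chains in T-DCs, against 13.02%, 16.9% and 23.8% in N-mDCs and 26.1%, 12.9% and 12.8% in T-mDCs. Itgax made up 24.7%, 29.9% and 22.7% in T-DCs, 66.3%, 54.4% and 49.4% in N-mDCs and 55.6%, 78.6% and 78.7% in T-mDCs. Itgal was thus the main alpha chain transcript in every T-DC sample and Itgax in every mature cDC sample. The T-DC shares spread little although the summed FPKM of the 4 chains ran from 189 to 613 among T-DC samples.

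The mean Itgal share was 56.4% ± 3.50 (SD, n = 3) in T-DCs, 38.5 percentage points above N-mDCs and 39.2 above T-mDCs. The mean Itgax share was 25.8% ± 3.70 in T-DCs, against 56.7% ± 8.65 in N-mDCs and 71.0% ± 13.3 in T-mDCs. Each of these 4 differences had no overlap and an exact two-sided permutation p of 0.1, which is the smallest that 3 against 3 samples allow, so no such comparison can pass a threshold of 0.05. Of 42 comparisons of shares, sums and ratios, 21 reached that value (Benjamini-Hochberg adjusted p = 0.2). The ratio of Itgax to Itgal was 0.376 to 0.549 in T-DCs, 2.08 to 5.09 in N-mDCs and 2.13 to 6.14 in T-mDCs. Itgam as listed made up 1.36% to 4.25%, a share that rests on how reads were divided with Gm49368.

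**Figure D3:**
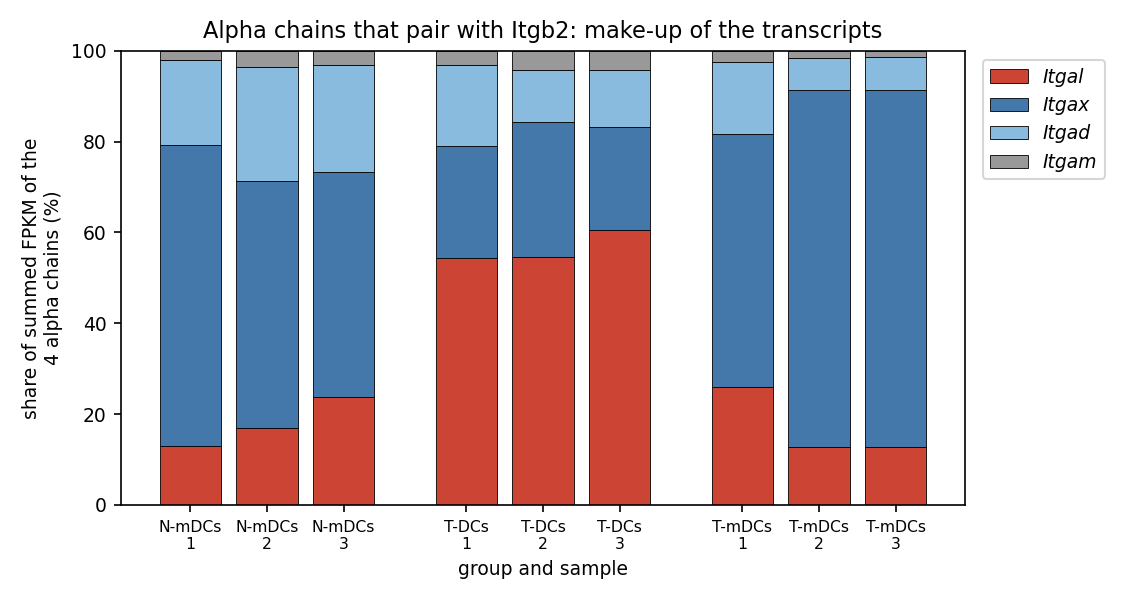
Share of each Itgb2-pairing alpha chain in the summed FPKM of the 4 chains (y axis, percent, from 0 to 100) in each sample (x axis). Itgal takes 54.3% to 60.5% in the 3 T-DC samples and 12.8% to 26.1% in the 6 mature cDC samples, where Itgax takes 49.4% to 78.7%.

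Itgb2 itself was 891, 470 and 283 FPKM in T-DCs, 265, 270 and 283 in N-mDCs and 355, 217 and 214 in T-mDCs. T-DC sample 3 lay just above the highest N-mDC sample and inside the T-mDC range. Neither difference passed the threshold (0.85, interval -0.05 to 1.74, adjusted p = 0.159, against N-mDCs and 0.95, interval 0.05 to 1.84, adjusted p = 0.146, against T-mDCs, limma), and the second passed without T-DC sample 3 (1.34, adjusted p = 0.0472). Set against its partners, the ratio of Itgb2 FPKM to the summed FPKM of the 4 alpha chains was 1.453, 1.556 and 1.499 in T-DCs, 0.762, 0.929 and 0.876 in N-mDCs and 1.247, 1.028 and 1.007 in T-mDCs. The 3 groups did not overlap in this ratio, and each pair of groups had an exact permutation p of 0.1.

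Itgae, the CD103 gene, stood out in the mature cDCs of leukemic spleen. Its FPKM was 16.7, 13.7 and 14.2 in T-mDCs, 5.47, 1.49 and 0.532 in T-DCs and 6.23, 2.37 and 3.16 in N-mDCs. The T-mDC samples lay above all others with little spread, and the T-DC samples differed among themselves by more than the N-mDC samples did. FPKM + 1, which understates folds of low values, was 5.43-fold lower in T-DCs than in T-mDCs (log2 difference -2.44 ± 0.49 SE, limma adjusted p = 0.0149). This call was lost when T-DC sample 2 (adjusted p = 0.0567) or T-mDC sample 2 or 3 (0.0616 and 0.0638) was left out, while the log2 difference stayed between -3.02 and -1.98 when any sample was left out. FPKM + 1 in T-mDCs was 3.39-fold that in N-mDCs, a log2 difference of 1.76 that missed the threshold (limma, adjusted p = 0.117). T-DC samples enter this comparison only through the shared estimate of the spread. The difference passed without T-DC sample 1 (limma, adjusted p = 0.0164). It also passed with only the T-mDC and N-mDC samples in the fit (limma, adjusted p = 0.0244). In the latter fit 850 of all tested genes passed, against 282 in the reported fit. Against N-mDCs the T-DC difference was -0.68 (limma, adjusted p = 0.353), and -1.25 without T-DC sample 1 (adjusted p = 0.0198). Itgae had 37 to 1448 reads per sample.

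Of the 8 cDC1 markers, 7 were lower in T-DCs than in T-mDCs and 5 than in N-mDCs (both by limma at an adjusted p under 0.05). Of all tested genes, 8.79% and 10.3% were lower in these comparisons. The cDC1 sum ran with Itgae (r = 0.845 over the 9 samples, as a description). Erythroid and neutrophil marker sums ran against it (r = -0.911 and -0.929). With the mean level of 8 erythroid markers as a covariate, the Itgae difference between T-DCs and T-mDCs was -0.76 (limma, adjusted p = 0.534), while those of Itgal, Itgb3 and Itgam were 2.83, 2.44 and 1.59 (adjusted p = 0.263, 0.228 and 0.344). That limma fit called 0 of the 12746 genes in this comparison, with 1705 at an unadjusted p under 0.05. All 8 erythroid markers were higher in T-DCs than in T-mDCs without overlap, so the fit cannot well separate the covariate from the group. A lost call or a changed difference in it therefore says little. The part of cDC1, erythroid or neutrophil cells in the Itgae values was not tested.

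Itgb7, the partner of Itgae and of Itga4, was 98.7, 93.4 and 39.6 FPKM in T-DCs, 79.4, 128 and 93.9 in N-mDCs and 88.2, 98.7 and 103 in T-mDCs. The groups overlapped and no difference passed (limma, adjusted p = 0.381, 0.447 and 0.973). As a share of the FPKM of the 4 beta chains Itgb7 was 8.26%, 13.5% and 8.83% in T-DCs, below the 17.6% to 26.7% of N-mDCs and the 15.4% to 23.5% of T-mDCs. Itgb2 made up 63.2% to 74.6% of the beta chain FPKM in T-DCs, above the 56.4% to 59.2% of N-mDCs and the 49.0% to 62.0% of T-mDCs.

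Itga4, the alpha chain shared by the VCAM-1 and MAdCAM-1 receptors, was 74.2, 49.4 and 38.4 FPKM in T-DCs, 54.7, 15.4 and 56.3 in N-mDCs and 37.5, 44.3 and 43.6 in T-mDCs. All 3 groups overlapped, with N-mDC sample 2 the lowest of the 9. The log2 differences were 0.50, 0.31 and 0.19, with limma adjusted p from 0.472 to 0.873, and the first interval ran from -0.56 to 1.57. Its partner Itgb1 was 180, 119 and 116 FPKM in T-DCs, 102, 75.7 and 95.7 in N-mDCs and 124, 120 and 117 in T-mDCs. Both leukemic groups lay above N-mDCs without overlap, though neither difference passed (0.58, adjusted p = 0.0977, for T-DCs and 0.41, adjusted p = 0.382, for T-mDCs, limma).

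Itgb3, a low transcript of these cells, was higher in T-DCs than in T-mDCs. Its FPKM was 25.3, 8.65 and 9.17 in T-DCs, 4.37, 5.04 and 5.57 in N-mDCs and 5.59, 2.60 and 2.53 in T-mDCs. T-DCs lay above both other groups without overlap, and T-DC sample 1 was far above the other two. The log2 difference from T-mDCs was 1.65 ± 0.40 (SE), a 3.14-fold higher FPKM + 1 (limma, adjusted p = 0.0297). From N-mDCs it was 1.20 ± 0.40 (limma, adjusted p = 0.0736). The call against T-mDCs was kept without T-DC sample 1 (1.18, adjusted p = 0.0128) and lost without N-mDC sample 3 (0.0512) and without T-mDC sample 2 or 3 (0.127 and 0.126).

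Platelets and megakaryocytes carry Itgb3 with Itga2b, so both that partner and the markers were read. The summed FPKM of 10 megakaryocyte and platelet markers was 11.2, 23.6 and 19.4 in T-DCs, 4.93 to 26.0 in N-mDCs and 5.58 to 6.63 in T-mDCs, and Gp1bb was at 0 in all 9 samples. T-DC sample 1, with the most Itgb3, had the lowest sum of its group. Clec1b alone held 10.2 FPKM of that sum, with Pf4 at 0.310, Ppbp at 0.155 and Gp9 at 0. In T-DC samples 2 and 3 Gp9 was 6.88 and 9.05 FPKM and Pf4 7.34 and 3.75. The part of platelets in the Itgb3 values was not tested. Itga2b was 0.348, 3.87 and 2.58 FPKM in T-DCs, 0.457 to 2.20 in N-mDCs and 0.359 to 0.674 in T-mDCs (limma, adjusted p = 0.708 and 0.242 for the T-DC differences). The other partner, Itgav, was 11.1, 6.19 and 3.41 FPKM in T-DCs, 3.36 to 5.90 in N-mDCs and 4.57 to 5.74 in T-mDCs, with no difference past the threshold (limma, adjusted p = 0.558 and 0.649).

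Counted over the 10 genes, 1 passed the threshold between T-DCs and N-mDCs (Itgal, higher), where 16.4% of all tested genes passed, 6.10% higher and 10.3% lower. Between T-DCs and T-mDCs 4 passed (Itgal, Itgam and Itgb3 higher, Itgae lower), where 14.2% of all genes passed, 5.44% higher and 8.79% lower. Between T-mDCs and N-mDCs 0 passed with limma, where 2.21% of all genes passed, 0.690% higher and 1.52% lower, and 0 passed with limma voom on recovered reads. An unadjusted limma p under 0.05 was held there by 3 of the 10 genes and by 2130 of all 12746. Groups did not overlap for 5 of the 10 genes in the first comparison (4 higher, 1 lower), where this held for 32.4% of all genes (16.0% higher, 16.4% lower). They did not overlap for 5 in the second (3 higher, 2 lower), against 34.9% of all genes (16.8% higher, 18.1% lower), and for 4 in the third (2 higher, 2 lower), against 35.0% (19.3% higher, 15.7% lower). Median log2 differences of the 10 genes were 0.46, 0.63 and -0.12, beside 0.05, 0.07 and 0.03 over all tested genes. The comparisons share samples, so their values are given side by side only.

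**Figure D4:**
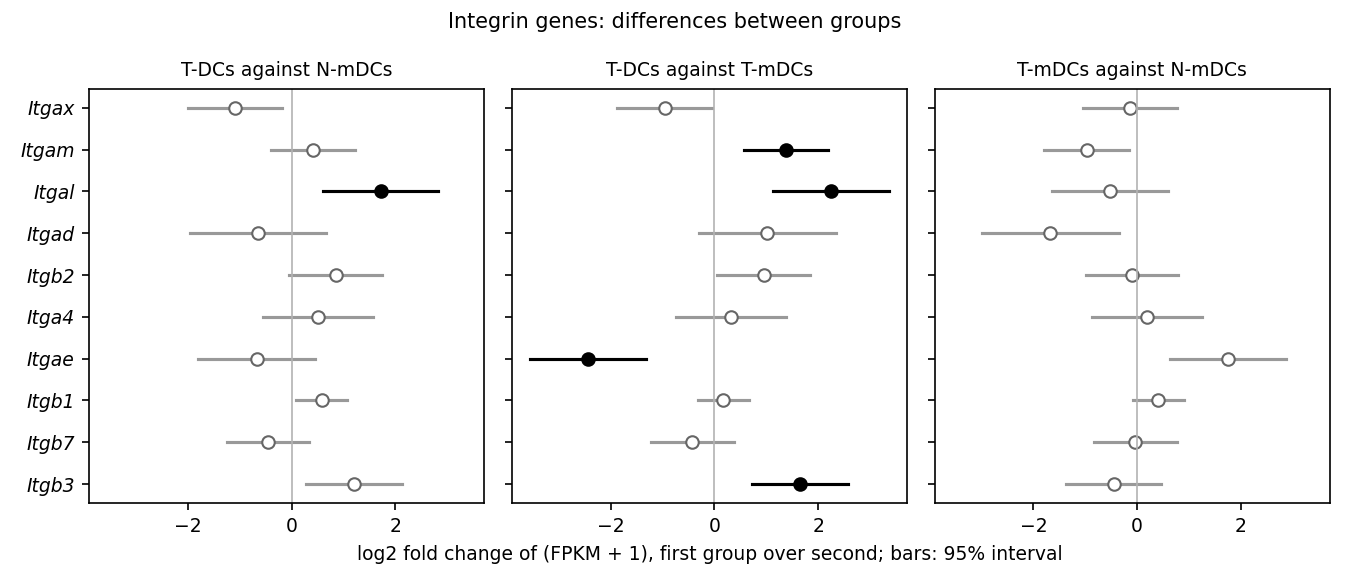
Log2 differences of FPKM + 1 for the 10 integrin genes in the 3 comparisons (x axis, first group over second), with bars for the 95% interval from limma over all 9 samples. Filled points passed an adjusted p of 0.05: Itgal (1.72) against N-mDCs, Itgal (2.25), Itgam (1.39), Itgb3 (1.65) and Itgae (-2.44) against T-mDCs, and none between the mature cDCs.

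Of 16 other integrin chains, 7 passed the filter. Itga5, the fibronectin receptor chain that pairs with Itgb1, was higher in T-DCs than in N-mDCs (10.04, 8.61 and 12.7 against 3.92, 4.33 and 6.05 FPKM, log2 difference 0.99, limma adjusted p = 0.0231). It was 12.8, 8.52 and 8.59 FPKM in T-mDCs, overlapping T-DCs. Itga8, another partner of Itgb1, was at most 1.86 FPKM and lower in T-DCs than in both other groups (-0.74 and -1.14, limma adjusted p = 0.0319 and 0.00673). The call for Itga5 was lost without N-mDC sample 1 or 2 or T-DC sample 3 (adjusted p = 0.061 to 0.0894). The first call for Itga8 was lost without N-mDC samples 1 or 3, T-DC samples 2 or 3, or T-mDC samples 2 or 3 (0.0547 to 0.102). The other 5 did not pass in any comparison. Of all tested genes, 16.4% passed between T-DCs and N-mDCs and 14.2% between T-DCs and T-mDCs.

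Among 33 genes of integrin activation and adhesion adaptors, 29 were tested. Against N-mDCs 1 was higher in T-DCs and 3 were lower, where 6.10% and 10.3% of all tested genes were. Vcl, which links adhesions to actin, was 6.45, 7.52 and 7.99 FPKM in T-DCs and 2.65, 0.690 and 3.13 in N-mDCs (1.496, limma adjusted p = 0.0162). Cytip, a restrainer of LFA-1 adhesion through cytohesin, was 91.9, 58.8 and 30.7 FPKM in T-DCs and 210, 141 and 219 in N-mDCs (-1.74, limma adjusted p = 0.0156). Parvg, a parvin of leukocytes, and Ptk2, focal adhesion kinase, were also lower (-1.23 and -0.79, limma adjusted p = 0.0307 and 0.0417). Against T-mDCs, 2 were higher and 1 lower, where 5.44% and 8.79% of all tested genes were. Rasgrp2, the exchange factor that turns on Rap1, was 24.1, 12.8 and 9.49 FPKM in T-DCs and 6.72, 1.73 and 1.89 in T-mDCs (1.97, limma adjusted p = 0.0284). Parvb was 4.37, 29.1 and 37.3 FPKM in T-DCs against 1.80 to 3.65 for T-mDCs (2.42, limma adjusted p = 0.041), high in the 2 T-DC samples with most hemoglobin reads, and its part in them was not tested. Skap2, an adaptor, was lower (-1.21, limma adjusted p = 0.0453). With the erythroid covariate, which this comparison cannot well separate from the group, Skap2 was -0.17 and Parvb -0.04 (limma, adjusted p = 0.879 and 0.979). Each of these 7 calls was lost when some 1 sample was left out. That of Vcl was lost without T-DC sample 2 or 3 (adjusted p = 0.0536 to 0.0555), that of Cytip without N-mDC sample 1 or 3 (0.0601 to 0.0619) and that of Rasgrp2 without T-DC sample 2 or T-mDC sample 2 or 3 (0.0738 to 0.124). Those of Ptk2, Parvb and Skap2 were lost without any sample except T-DC sample 1 (0.0551 to 0.163), and that of Parvg was kept only without T-DC sample 1 or T-mDC sample 1 (lost elsewhere at 0.0538 to 0.102). Tln1 and Fermt3, talin and kindlin-3, which bind the beta tails, did not pass (adjusted p = 0.119 and 0.223 against N-mDCs, 0.641 and 0.277 against T-mDCs). Between T-mDCs and N-mDCs none of the 29 passed with limma or with limma voom on recovered reads. An unadjusted limma p under 0.05 was held by 3 of them, and by 2130 of all 12746 tested genes.

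Of 20 ligand genes 12 were tested. In T-DCs against T-mDCs 1 was called higher and 2 lower, where 5.44% and 8.79% of all tested genes were. Icam2, a ligand of LFA-1, was higher in T-DCs than in T-mDCs (15.5, 13.3 and 11.2 against 6.96, 4.73 and 4.63 FPKM, 1.16, limma adjusted p = 0.0209). Icam1, the main LFA-1 ligand, was lower (50.1, 21.0 and 12.1 against 62.6, 85.5 and 82.3 FPKM, -1.66, limma adjusted p = 0.0383), as was Spp1, osteopontin, a ligand of Itga4 and Itgav integrins (-1.23, limma adjusted p = 0.03). With the erythroid markers as a covariate the difference of Icam1 was -0.12 (limma, adjusted p = 0.918), in a fit that cannot well separate covariate and group. Of the LFA-1 ligands, Icam2 was thus higher and Icam1 lower in the same comparison. Against N-mDCs no ligand passed with limma or limma voom, where 16.4% of all tested genes passed with limma. An unadjusted limma p under 0.05 was held by 6 ligands, and by 4472 of all 12746 genes. The call for Icam2 was lost without T-DC sample 2 or T-mDC sample 2 or 3 (adjusted p = 0.0675 to 0.102), that for Icam1 without any sample except T-DC sample 1 (0.0538 to 0.146) and that for Spp1 without N-mDC sample 3, T-DC sample 3 or T-mDC sample 2 or 3 (0.0509 to 0.132). Between the mature cDCs, where 2.21% of all tested genes passed, 1 ligand passed, Thbs1, a thrombospondin, which was lower in T-mDCs (0.628, 0.545 and 0.528 against 9.90, 14.0 and 65.6 FPKM, -3.82, limma adjusted p = 0.0403). That call was kept only without T-DC sample 1 or 2 (lost elsewhere at 0.052 to 0.172).

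For each integrin, the tested genes with the most similar pattern over the 9 samples were read from Pearson's r of log2(FPKM + 1), given as a description of points that share libraries. The highest were Rap1gap2 and Cd300lb for Itgal (both r = 0.999) and Pilra and B430306N03Rik for Itgam (0.993 and 0.986), while Decr2 was among them for Itgax (0.99) and Hpgd for Itgad (0.99). For the beta chains they were Plekhm1 and Rassf5 for Itgb2 (0.988 and 0.986), Zfp770 and Fyco1 for Itgb1 (0.984 and 0.971), Hk3 and Gm15922 for Itgb7 (0.968 and 0.941) and Il17ra and Klf13 for Itgb3 (0.991 and 0.987). Tcp11l1 and Sh3pxd2b came first for Itgae (0.994 and 0.991), and Ubr3 and Col4a3bp for Itga4 (0.976 and 0.959). Among the integrins themselves r was 0.885 between Itgal and Itgam and -0.424 between Itgal and Itgax.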

How the data were processed

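Bulk RNA-seq values of 9 sorted spleen samples (3 N-mDCs, 3 T-DCs and 3 T-mDCs) were read from the FPKM table the authors deposited, made on genome build mm10. The aligner, counter, annotation and strand setting are not given in the sources used here. FPKM multiplied by the deposited gene length came out as whole reads in each sample (largest deviation 4.56e-05 of a read), with 15360815 to 18440913 reads on genes per sample, which limits the precision of low genes. The scale of analysis was log2(FPKM + 1), and the 12746 genes that reached an FPKM of 1 in 3 or more samples were tested, so fold changes of low genes are understated. One limma fit (version 3.58.1, under R 4.3.3, with a trended eBayes prior) held all 9 samples, and a call needed a Benjamini-Hochberg adjusted p under 0.05 over all tested genes. Simulated data with known changes were used to check that the fit runs as written. They had the same spread in all genes and samples and no sample that stood apart. The check therefore does not show how the fit fares with these T-DC samples. Shares and ratios were compared by exact two-sided permutation tests over the 20 splits of 3 against 3 samples (scipy 1.17.1). Groups came from the sample titles.

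All 10 integrins were named. Of the wider lists, up to 4 genes past the threshold with the largest change in each T-DC comparison were named, plus Itgav and Itga2b as partners of Itgb3 and Tln1, Fermt3 and Thbs1 as genes chosen after their values were seen. For each integrin the 2 most correlated genes were named, apart from some that are not reported here. The integrins and the lists were chosen with earlier results of these data known. Alternatives covered the pseudocount, filter, scaling, samples in the fit, weights, replicate block, a fit on recovered reads, an erythroid covariate, the near-identical samples and leaving out each sample. Flow cytometry, single-cell data and reads of the study were not used here.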

Additional observations from a re-analysis of the deposited data

How the results depend on the processing

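Over 21 alternatives, 20 of the 30 integrin log2 differences kept their direction in every one, and 24 of 630 values reversed. Of the 10 integrins, 1 passed between T-DCs and N-mDCs in the reported fit. This became 0 without a filter, with TPM, with quantile normalization, with only the groups compared, with limma voom on recovered reads and with T-mDC samples 2 and 3 averaged into 1, and 0 to 2 when 1 sample was left out. Between T-DCs and T-mDCs, 4 passed. This became 1 without a filter, with TPM and with only the groups compared, 0 with these averaged and with the erythroid covariate, and 0 to 5 with 1 sample left out. Between T-mDCs and N-mDCs 0 passed, against 1 (Itgae) with only the groups compared and 0 to 2 with 1 sample left out. Array weights gave 8, 7 and 5, from a fit that did not converge and put a weight of 46.6 on T-DC sample 2. The replicate numbers were not a pairing in the labels and same-numbered samples did not deviate together (r from -0.475 to 0.269). With a replicate block, 0, 4 and 0 of the integrins passed in the 3 comparisons. Calls over all genes, 2096, 1813 and 282 in the reported fit, ran from 604 to 8485, 0 to 9923 and 11 to 3841. TPM moved the median of all genes by -0.296 between T-DCs and T-mDCs, by 0.208 between T-mDCs and N-mDCs and by -0.0957 between T-DCs and N-mDCs. The Itgal and Itgax shares kept their T-DC differences in every alternative run on them (36.1 to 43.6 points higher, and from -52.9 to -26.1 points).

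Reversed differences, none of them past the threshold in the reported fit except Parvb, were these. For T-DCs against N-mDCs, Itga4 was -0.0901 without N-mDC sample 2 (up to 0.811 with another sample left out), Itgae 0.403 with the erythroid covariate and Itgb7 0.0775 with array weights. For T-DCs against T-mDCs, Itgax was 0.222 and Parvb -0.0425 with the erythroid covariate, Itga4 was -0.00848 with TPM, and Itgb1 was -0.16 with TPM, -0.127 with quantile normalization and -0.0338 without T-DC sample 1 (up to 0.277). For T-mDCs against N-mDCs, TPM gave 0.082, 0.119 and 0.186 for Itgax, Itgb2 and Itgb7, and quantile normalization gave 0.11, 0.129 and 0.198. Itgb2 was 0.021 with T-mDC samples 2 and 3 averaged, and -0.339 to 0.0248 with 1 T-mDC sample left out (0.0172 without sample 2). Itga4 was -0.175 with array weights, -0.312 with the erythroid covariate and -0.405 without N-mDC sample 2 (up to 0.496). Itgax was 0.0415 without N-mDC sample 1 (down to -0.227), and Itgb7 was 0.179 with array weights, 0.157 without N-mDC sample 2 and 0.0321 without T-mDC sample 1 (down to -0.185). With the erythroid covariate the T-DC differences from N-mDCs that moved over 1.5 times among called genes were Cytip (-1.02), Ptk2 (-0.352), Parvg (-0.706) and Itga8 (-0.454), and Itga8 was -0.69 against T-mDCs. The cause was not tested.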
